A study of Mus musculus with 12 samples.

Results

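Brown adipose tissue (BAT) burns fuel to make heat, and it also releases proteins that act on nerves, blood vessels and other organs. Transcripts of 9 such secreted factors were followed, taken by gene symbol from the count table: Bmp8b, Fgf21, Gdf15, Nrg4, Il6, Metrnl, Bmp4, Bmp7 and Slit2. All 9 were among the 24197 genes of the table. A filter on low counts left 15265 genes for testing, and 8 of the 9 factors passed it, all except Il6.

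The tissue was BAT of mice aged 8 to 10 weeks, in 4 groups of 3 libraries. Every animal carried floxed alleles of Ebf2 (Ebf2 fl/fl), which encodes a transcription factor of brown adipocytes. Controls lacked the Adipoq-Cre transgene and the animals labelled mutant carried it. The adiponectin promoter drives this recombinase in adipocytes, so the other cells of the tissue keep Ebf2. Each genotype was kept at room temperature or at 4 degrees C for 1 week, and the question was how the tissue differs by genotype at each temperature. Whether the 3 libraries of a group are 3 animals is not stated in the labels. A p-value here therefore weighs only the spread among these libraries, which may be technical.

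Secreted factors of brown fat work over different distances. BMP8b, BMP4 and BMP7 are bone morphogenetic proteins, which bind paired serine/threonine kinase receptors and act through SMAD proteins. BMP7 promotes brown adipocyte formation, BMP4 commits precursor cells to the fat lineage, and BMP8b is known as a factor of activated brown fat. FGF21 is a hormone that needs the co-receptor beta-Klotho together with an FGF receptor. GDF15 signals through GFRAL and RET in the hindbrain, and genes of the ATF4 stress pathway often rise together with both hormones. NRG4 is a ligand of the ErbB receptors that promotes nerve growth, METRNL is a meteorin-like protein that binds KIT, IL-6 is a cytokine that signals through gp130, and SLIT2 is a guidance protein whose receptors are the ROBO proteins.

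The promoters of the 4 factors on which the results turn are shown here, since Bmp8b and Fgf21 rose in the cold, Nrg4 fell in the cold in the libraries labelled mutant, and Bmp4 was higher in those libraries at room temperature. Sequences are from RefSeq (build GRCm38.p6, from 250 bases before to 50 after the gene start, 5′ to 3′ on the gene's strand), which had an entry for 8 of the 9 factors. Capitals mark motif matches.
Bmp8b, chr4:123104911-123105210, plus strand: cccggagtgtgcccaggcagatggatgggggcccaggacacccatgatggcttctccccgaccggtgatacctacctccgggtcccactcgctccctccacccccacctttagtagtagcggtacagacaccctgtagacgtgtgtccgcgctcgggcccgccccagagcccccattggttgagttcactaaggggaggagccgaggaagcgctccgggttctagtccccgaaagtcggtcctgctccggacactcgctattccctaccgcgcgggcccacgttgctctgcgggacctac
Fgf21, chr7:45615441-45615740, minus strand: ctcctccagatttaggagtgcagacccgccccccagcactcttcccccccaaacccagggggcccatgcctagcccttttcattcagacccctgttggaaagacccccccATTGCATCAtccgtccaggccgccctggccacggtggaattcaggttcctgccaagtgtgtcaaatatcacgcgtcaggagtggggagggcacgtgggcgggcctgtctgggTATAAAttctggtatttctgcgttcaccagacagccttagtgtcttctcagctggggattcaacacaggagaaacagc
Nrg4, chr9:55283576-55283875, minus strand: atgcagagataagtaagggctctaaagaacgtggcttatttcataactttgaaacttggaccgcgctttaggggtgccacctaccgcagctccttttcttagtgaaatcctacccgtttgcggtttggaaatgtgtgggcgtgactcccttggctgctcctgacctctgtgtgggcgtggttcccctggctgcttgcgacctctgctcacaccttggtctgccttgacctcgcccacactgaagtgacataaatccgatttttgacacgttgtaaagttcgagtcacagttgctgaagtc
Bmp4, chr14:46390620-46390919, minus strand: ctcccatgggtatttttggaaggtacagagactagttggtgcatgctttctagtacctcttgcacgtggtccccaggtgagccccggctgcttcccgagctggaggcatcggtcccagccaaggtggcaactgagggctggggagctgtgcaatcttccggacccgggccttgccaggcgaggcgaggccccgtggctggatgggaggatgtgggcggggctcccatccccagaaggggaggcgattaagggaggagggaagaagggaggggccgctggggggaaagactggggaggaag
The Fgf21 promoter held the amino acid response element of ATF4, searched as TGATGCAAT on both strands and found as ATTGCATCA from base -140. The same letters stood in 0.192% of 32851 mouse promoters of this length. It also held a TATA box (TATAAA) from base -28, a motif present in 13.6% of promoters. None of the other motifs searched, the EBF palindrome (TCCC, any 2 bases, GGGA), the estrogen-related receptor element TCAAGGTCA, the cAMP response element TGACGTCA and the GC box GGGGCGGGG, matched in these 4 windows. Those motifs stood in 0.904%, 0.423%, 1.79% and 11.4% of promoters. The motifs were picked after these promoters had been looked at, and a match is a description of the letters alone. The Slit2 promoter held a GC box from base -82 and a TATA box from base -28.

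Library totals ran from 25835650 to 37927038 counts. Ebf2 itself did not follow the genotype label at room temperature. It stood at 49.8 ± 13.9 CPM (counts scaled to a common library total, SD, n = 3) in the libraries labelled mutant and 47.8 ± 16.1 CPM in controls. In the cold it stood at 25.8 ± 3.73 and 45.4 ± 6.04 CPM, which is -0.82 ± 0.25 as a log2 difference (SE, adjusted p = 0.153), so every direction by genotype below is a direction between labelled libraries. Which exons the floxed alleles lose is not given in the sources used here. All 8 brown adipocyte markers, Ucp1 among them, had counts in every group. Ucp1, the uncoupling protein of brown fat, stood at 4454 ± 1557 CPM in controls and 1308 ± 659 CPM in labelled mutants at room temperature (adjusted p = 0.0199), and at 11940 ± 378 and 9505 ± 3169 CPM in the cold (adjusted p = 0.716). The summed CPM of 14 skeletal muscle genes ran from 92.8 to 23100 over libraries and passed 1% of counts in 3, controls 1 and 3 and labelled mutant 3, all at room temperature. Summed eye lens genes ran from 151 to 683 CPM in room temperature controls and from 1.08 to 1.57 CPM in the labelled mutants there, with all 10 detected in controls. In the cold the lens sums ran from 152 to 205 CPM in controls and from 107 to 179 CPM in labelled mutants. The near absence of lens reads was thus found in the room temperature labelled mutants alone. A list of 6 hepatocyte genes summed to between 123 and 331 CPM in room temperature controls and between 606 and 971 CPM in room temperature labelled mutants. Most of that sum was Cyp2e1, at 119 to 327 CPM in those controls and 593 to 956 CPM in those labelled mutants. The defining gene of the list, Alb, stood at or below 0.603 CPM in all 12 libraries.

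Bmp8b and Fgf21 transcripts rose in the cold in both genotypes. Gdf15 and Metrnl rose and Nrg4 fell in the libraries labelled mutant, while their cold differences in controls did not pass the test. In controls, 2 of the 8 tested factors were called (Bmp8b and Fgf21, both higher), where 6.62% of all tested genes were called. In the labelled mutants, 5 of the 8 were called, where 17.4% of all tested genes were. Cold and room temperature groups did not overlap in CPM for 4 of the 8 in controls (the called factors, Gdf15 and Nrg4), where 33.3% of all tested genes did not, and for 5 of the 8 in labelled mutants (the 5 called), where 32.6% did not. By genotype at room temperature 1 of the 8 was called, Bmp4, higher in the labelled mutants, against 6.24% of all tested genes. Bmp8b, Nrg4, Metrnl and Bmp7 did not overlap there either, but were not called, and with Bmp4 they make 5 of 8 where 24.8% of all tested genes did not overlap. The Bmp8b gap there separates single libraries that hold 2 raw counts each. By genotype in the cold none of the 8 was called, against 1.12% of all tested genes. Of the 8, 1 (Fgf21) did not overlap there, again beside 24.8% of all tested genes. The same factor had an unadjusted p below 0.05, DESeq2 called 0 and limma-voom called 1. The test was edgeR's quasi-likelihood F-test, adjusted by Benjamini-Hochberg over the 15265 genes and called below 0.05. In BAT as a whole, fewer cells of a type and less RNA per cell cannot be told apart.

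Whether the cold response differed by genotype was tested directly as an interaction. None of the 8 factors was called in it, where 0.478% of all tested genes were, so the longer list of factors called in the labelled mutants is not shown to be a different response. At an unadjusted p below 0.05 stood 2 of the 8, and DESeq2 and limma-voom each called 0. The interaction with the smallest p among them was that of Bmp4, -1.69 ± 0.54 on the log2 scale (adjusted p = 0.227). The median log2 fold change over the 8 factors was 0.39 in controls and 0.45 in the labelled mutants for cold, beside -0.01 for all tested genes in each. By genotype it was 0.23 at room temperature and 0.10 in the cold, beside -0.04 and -0.01 for all tested genes. The comparisons share libraries: the room temperature labelled mutants, for example, enter both their genotype comparison and their cold comparison. That group also enters the interaction, and its lens gene sums (1.08 to 1.57 CPM) lay below those of all other groups. The part of this group's tissue content in these comparisons was not tested.

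**Figure D1:**
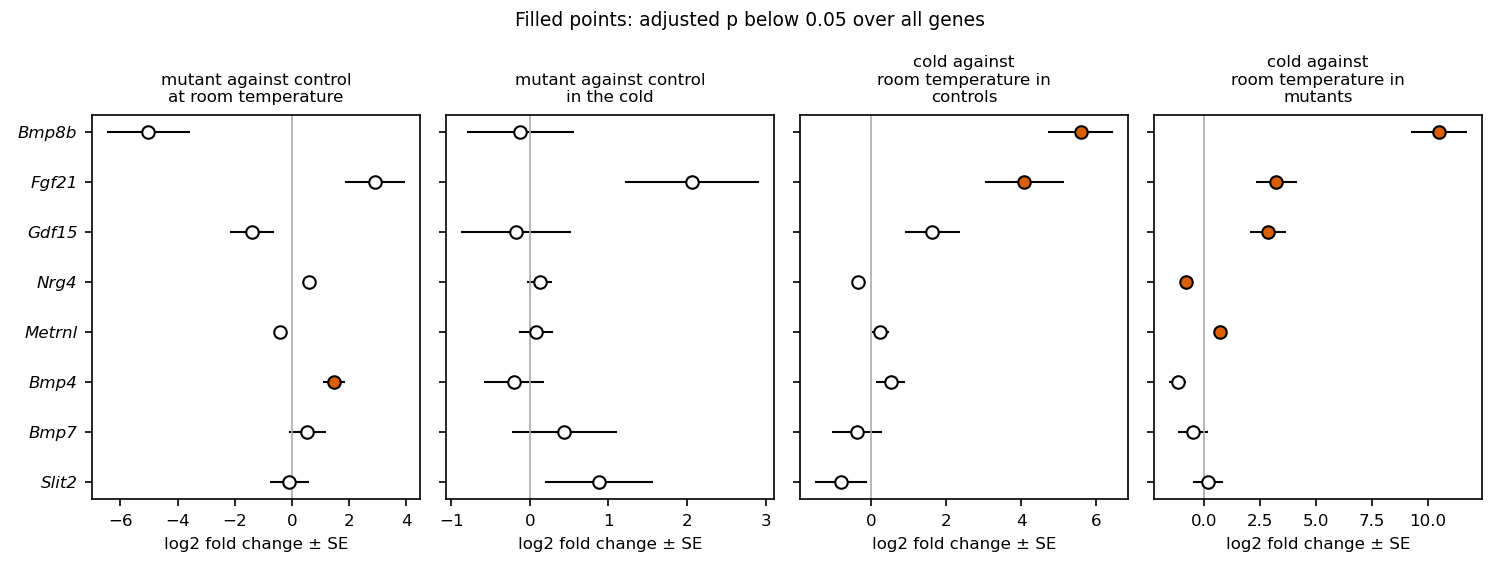
Log2 fold change (horizontal axis, points) ± SE (bars) of the 8 tested factors in the 4 comparisons of groups. Filled points passed an adjusted p of 0.05, and the horizontal axes differ in range. Filled points number 1 for genotype at room temperature, 0 in the cold, 2 for cold in controls and 5 for cold in the libraries labelled mutant.

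Levels can be compared between genes only per length, here as mean CPM per kilobase of the exons joined over all transcript models. On that scale Nrg4 stood highest of the 9 in every group, from 14.9 ± 0.71 in cold controls to 28.8 ± 4.28 in room temperature labelled mutants (SD, n = 3). Metrnl stood next at room temperature, at 5.68 ± 0.56 in controls and 4.29 ± 0.76 in labelled mutants. In the cold Bmp8b overtook it, at 9.64 ± 1.38 in controls and 8.88 ± 3.62 in labelled mutants. Fgf21 reached 7.61 ± 3.74 in the cold labelled mutants, where Metrnl stood at 7.10 ± 0.75 per kilobase, so the spreads of these 3 factors overlap there. Gdf15, Bmp4, Bmp7, Slit2 and Il6 had means below 1.4 per kilobase in every group. The Slit2 value is understated, because its joined exons of 25433 bases sum many transcript models.

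**Figure D2:**
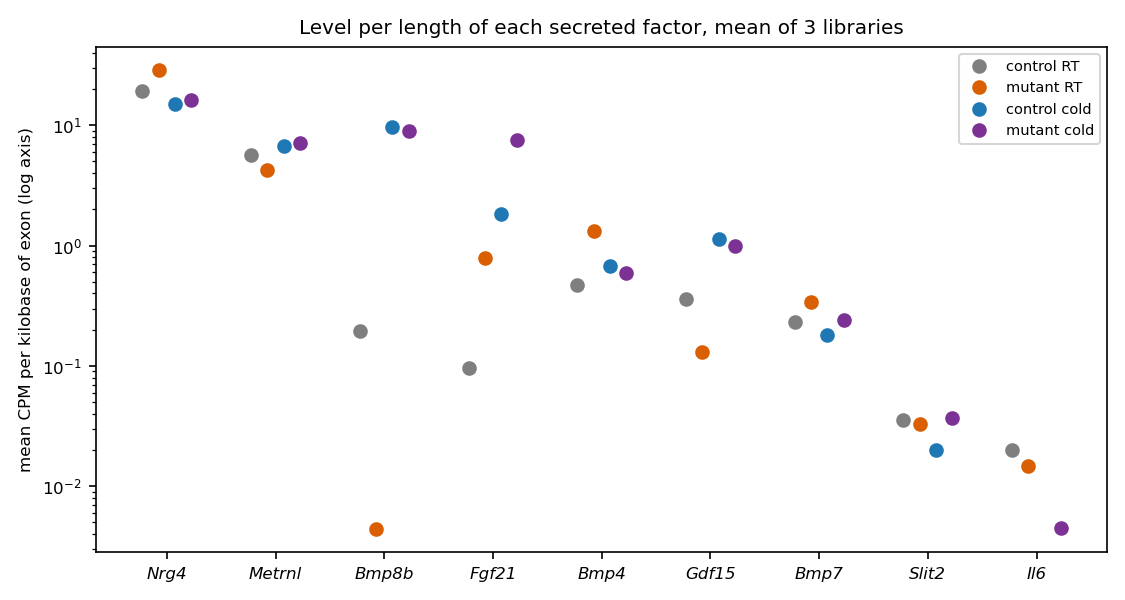
Mean CPM per kilobase of joined exon (vertical log axis) of the 9 factors in the 4 groups, each point the mean of 3 libraries. Nrg4 is highest in all 4 groups, Bmp8b moves from 0.194 in room temperature controls to 9.64 in cold controls, and Il6 in cold controls, at 0, is not drawn on the log axis.

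Bmp8b, the BMP ligand of activated brown fat, went from few or no reads at room temperature to at least 520 counts in every cold library. Room temperature controls 1, 2 and 3 held 68, 9 and 2 counts, and the labelled mutants held 2, 0 and 0. Cold controls held 1198, 951 and 1041 counts, and cold labelled mutants held 1179, 520 and 1791. The lowest cold library thus lay far above the highest room temperature library in both genotypes. In CPM the cold levels were 37.4 ± 5.34 in controls and 34.4 ± 14.1 in labelled mutants (SD, n = 3), against 0.751 ± 0.974 and 0.017 ± 0.0294 at room temperature.

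In controls Bmp8b rose in the cold by 5.59 ± 0.86 on the log2 scale (SE, adjusted p = 0.00727), a 48.1-fold change. Control 1 at room temperature holds 68 of the 79 counts of its group, and without it the value was 7.62 (adjusted p = 0.000919), while without the muscle-rich libraries it was 6.82 and with limma-voom and quality weights 7.83. It passed under all 16 alternatives run for it, with adjusted p at or below 0.0481. In the labelled mutants Bmp8b rose with an adjusted p of 0.0007002, also passing under all 16 alternatives (at or below 0.00835). With 2 counts in the room temperature group the fitted size depends on the prior count. The ratio of depth-scaled counts was 1780, with a 95% counting interval from 492 to 14700. Most low counts in the table are even numbers, and with counts halved that interval widens to between 319 and 70300. Counting intervals, here and below, pool the reads of a group and leave out the spread among its libraries.

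By genotype, Bmp8b at room temperature did not overlap in CPM between controls and labelled mutants. That gap comes from depth scaling alone, since control 3 and labelled mutant 1 each held 2 raw counts (0.0609 and 0.0509 CPM). Over the groups the counts were 79 against 2. The ratio of the groups was 40.4 with a counting interval from 10.8 to 339, or from 6.93 to 1650 with counts halved. Control 1 holds 68 of the 79 counts: the fitted log2 value was -5.02 with it and -2.98 without it, and -3.29 without the muscle-rich libraries, which include it. The adjusted p was 0.0799, so this difference did not pass the test. It passed with DESeq2 (0.00438) and without room temperature control 3 (0.0269), and ran up to 0.413 over the alternatives. Lens and brown adipocyte marker sums separate the same groups. The latter stood at 6760 to 11300 CPM in controls and 3590 to 5860 CPM in labelled mutants. Of its members, Ucp1, Cidea and Cox7a1 were lower in the labelled mutants without overlap, while Prdm16, Ppargc1a, Dio2, Cox8b and Zic1 overlapped. The part of either marker set in the Bmp8b difference was not tested. In the cold the genotypes overlapped, with a log2 difference of -0.12 and a 95% interval from -1.65 to 1.41.

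Some reads of Bmp8b cannot be assigned with certainty. Of the 50-base stretches in its transcripts, 10.3% also occur in other genes, 5.5% in the neighbouring ligand gene Bmp8a. Bmp8a held 4, 10, 9 and 17 counts over room temperature controls, room temperature labelled mutants, cold controls and cold labelled mutants. Its exons also share 133 bases with Ppie, a peptidyl-prolyl isomerase gene on the other strand, and the strand setting is not given in the sources used here. Ppie stood between 14.6 and 19.4 CPM in its group means, and its cold differences of 0.37 in controls and 0.33 in labelled mutants (log2) were not called.

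Bmp4, the BMP that commits precursors to the fat lineage, was the factor that rose by genotype. Room temperature controls held 36, 28 and 39 counts, and the labelled mutants held 110, 52 and 138. Every labelled mutant library lay above every control library. The means were 1.06 ± 0.108 and 2.999 ± 1.24 CPM (SD, n = 3), a 2.81-fold difference of 1.49 ± 0.38 on the log2 scale (SE, adjusted p = 0.0400).

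This call rested on few libraries. Leaving out any room temperature library except labelled mutant 2 moved it past the threshold, with adjusted p of 0.0844, 0.103 and 0.118 without controls 1, 2 and 3, and 0.0725 and 0.158 without labelled mutants 1 and 3. With only the groups compared the adjusted p was 0.0696. Without the 3 muscle-rich libraries, which leaves control 2 as the only room temperature control, the value was 1.204. The summed level of 8 fibroblast and preadipocyte genes, all detected, was 712 to 1160 CPM in those controls and 940 to 1220 CPM in those labelled mutants. Its part in the Bmp4 difference was not tested.

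In the cold Bmp4 held 55, 36 and 40 counts in controls and 38, 24 and 73 in labelled mutants. The genotypes overlapped, with a log2 difference of -0.20 and an interval from -1.03 to 0.63. From room temperature to cold the labelled mutants went from 2.999 ± 1.24 to 1.33 ± 0.511 CPM, a log2 difference of -1.17 ± 0.38 with an adjusted p of 0.0538. That passed under 5 alternatives, with DESeq2 (0.0194), limma-voom and quality weights (0.0246) and the replicate block (0.0316), without room temperature labelled mutant 2 (0.0383) and without cold labelled mutant 3 (0.0207), and the alternatives spanned 0.0194 to 0.262. Controls went from 1.06 ± 0.108 to 1.53 ± 0.354 CPM (0.53 ± 0.38, adjusted p = 0.439). In order of level the room temperature labelled mutants had the highest mean, their lowest library (1.87 CPM) lying beside the highest cold control (1.89 CPM), and the other 3 groups overlapped.

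Bmp7, the BMP that drives brown adipocyte formation, was low in every library and not called in any comparison. Room temperature controls held 40, 29 and 22 counts and labelled mutants held 59, 36 and 42. Cold controls held 18, 18 and 25 counts, while cold labelled mutants 1, 2 and 3 held 5, 16 and 84. Cold labelled mutant 3 alone holds 84 of the 105 counts of its group and the highest Bmp7 level of all 12 libraries, 2.16 CPM.

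The room temperature genotypes did not overlap in CPM of Bmp7 (0.94 ± 0.235 against 1.37 ± 0.113, SD, n = 3), but the log2 difference of 0.54 ± 0.66 was not called (adjusted p = 0.725). In the labelled mutants the cold difference was -0.49 ± 0.66 (adjusted p = 0.665). Without cold labelled mutant 3 it was -1.89 with an adjusted p of 0.0283, and with limma-voom and quality weights -2.12 with 0.00999, while the alternatives ran up to 0.993. The same library held 258 CPM of 6 epithelial genes such as Krt8 and Epcam, against 7.89 and 10.2 CPM in labelled mutants 1 and 2. Its fibroblast sum was 1210 CPM against 401 and 471. The part of those cells in its Bmp7 level was not tested.

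Fgf21, the metabolic hormone, was almost unread in room temperature controls and highest in cold labelled mutants. Room temperature controls held 10, 0 and 0 counts, and labelled mutants held 46, 6 and 28. Cold controls held 86, 26 and 36 counts, and cold labelled mutants held 107, 212 and 410. In CPM the 4 means were 0.0914 ± 0.158, 0.755 ± 0.489, 1.73 ± 1.10 and 7.24 ± 3.56 (SD, n = 3) in that order. Neighbours in this order overlapped, except that the highest cold control (2.96 CPM) lay below the lowest cold labelled mutant (3.49 CPM).

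In the cold Fgf21 rose in controls by 4.08 ± 1.05 on the log2 scale (SE, adjusted p = 0.0436) and in labelled mutants by 3.24 ± 0.90 (adjusted p = 0.0305), with no overlap in either genotype. As depth-scaled counts the ratios were 16.7 (95% counting interval 8.84 to 35.6) and 9.28 (7.36 to 11.8). With counts halved the intervals were 6.85 to 53.0 and 6.69 to 13.2. Both calls lie close to the threshold. The control call was lost without room temperature control 2 (0.1) or 3 (0.122) and without cold control 1 (0.126), 2 (0.0749) or 3 (0.0986). It was also lost with no filter (0.0614), with only the groups compared (0.0666) and without the muscle-rich libraries, so that 8 of 16 alternatives kept it. Without the muscle-rich libraries only control 2 remains of the room temperature controls. Without room temperature control 1 the rest of that group is at 0 and the fit has no defined size. The labelled mutant call was lost without room temperature labelled mutant 1 (0.0565), 2 (0.0935) or 3 (0.0838) and without cold labelled mutant 2 (0.0706) or 3 (0.0549).

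By genotype Fgf21 had more counts in the labelled mutants at both temperatures, but neither difference passed the test. At room temperature the ratio was 7.83 (4.04 to 16.9, or 3.09 to 25.4 with counts halved), the log2 difference 2.90 ± 1.05 and the adjusted p 0.14. It passed with DESeq2 (0.0122) and without room temperature control 1 (0.0217), which left 0 counts in that group, and ran up to 0.36. In the cold all 3 labelled mutants lay above all 3 controls, at 3.49, 7.68 and 10.5 CPM against 2.96, 0.856 and 1.37. The log2 difference was 2.06 ± 0.85 (adjusted p = 0.279), passing with limma-voom and quality weights (0.0491) and reaching 0.546 elsewhere. Cold labelled mutant 3, the library with the high epithelial sum, carries 410 of the 729 counts of its group. Without that library the log2 difference was 1.69 (adjusted p = 0.502).

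Gdf15, the stress hormone, was low and stood higher in the cold, a difference called only in the labelled mutants. Room temperature controls held 40, 20 and 6 counts and labelled mutants held 22, 2 and 3. Cold controls held 96, 36 and 46 counts and cold labelled mutants held 40, 50 and 94. Every cold library lay above every room temperature library of its genotype in CPM. In the labelled mutants Gdf15 rose by 2.86 ± 0.79 on the log2 scale (adjusted p = 0.0270), from 0.242 ± 0.276 to 1.84 ± 0.559 CPM (SD, n = 3).

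The Gdf15 call in labelled mutants was lost without room temperature labelled mutant 2 (0.0931) or 3 (0.0938), without cold labelled mutant 2 (0.0557), with only the groups compared (0.0533) and without the muscle-rich libraries (0.078). Without room temperature labelled mutant 1, which holds 22 of the 27 counts of its group, the value was 4.40 (0.00803). In controls the cold difference was 1.63 ± 0.73 (adjusted p = 0.202), from 0.669 ± 0.46 to 2.08 ± 1.10 CPM. Genotypes overlapped at both temperatures. In the cold the log2 difference was -0.17 with an interval from -1.70 to 1.36, and it changed sign without cold control 1 (0.33).

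**Figure D3:**
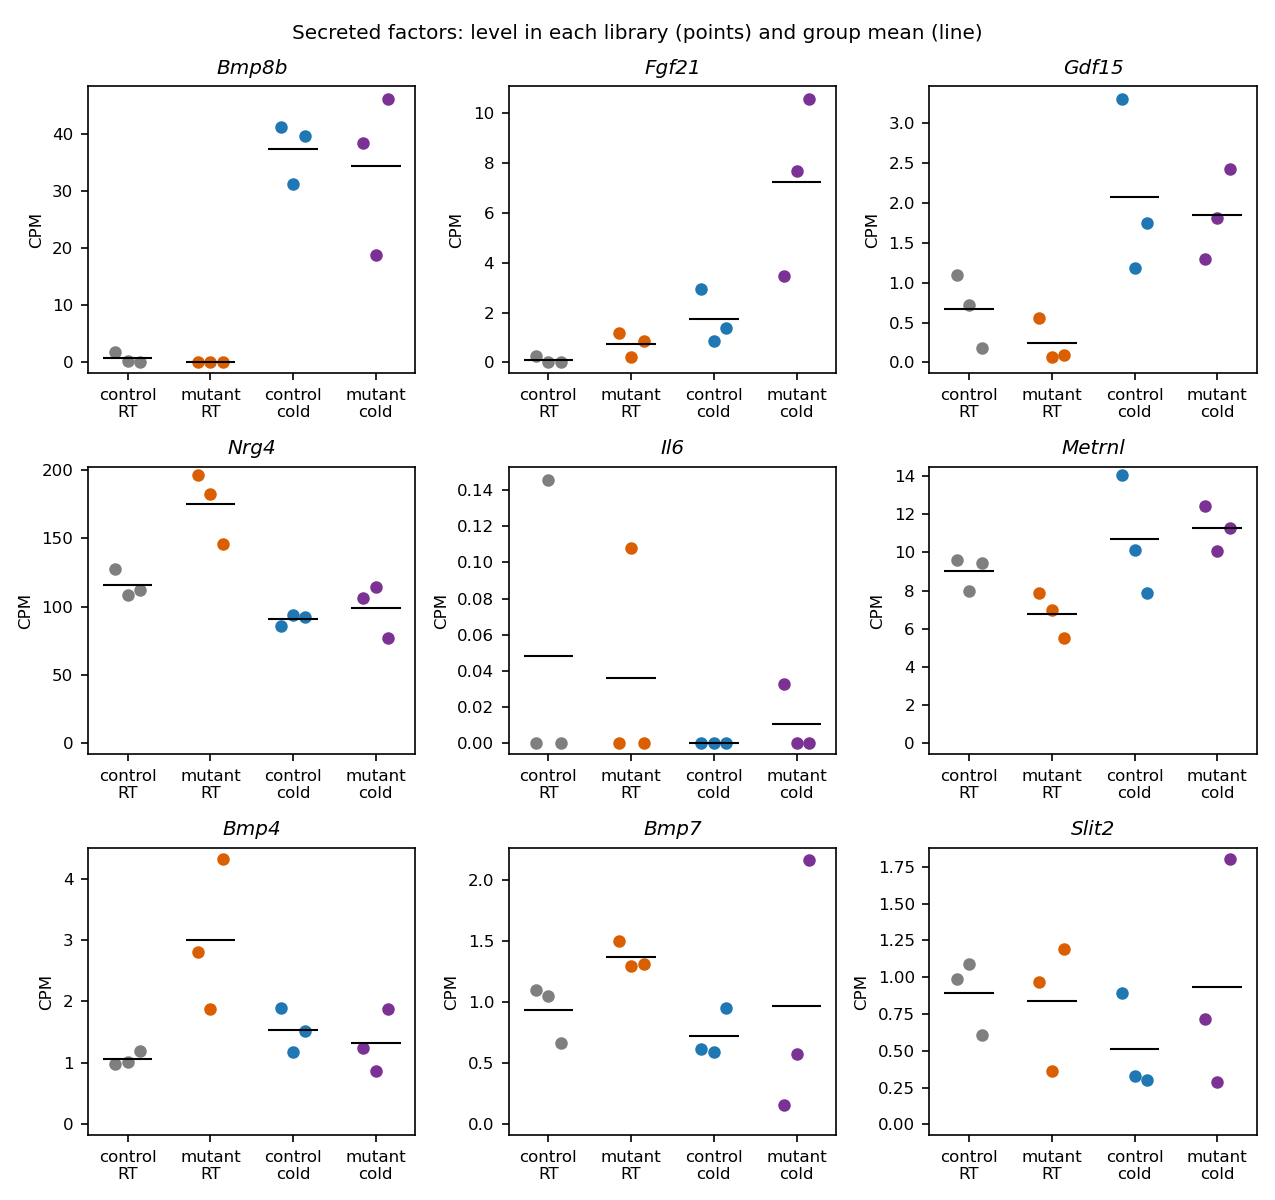
Level of each of the 9 factors in CPM (vertical axes, which differ in range) in every library (points) with the mean of each group (line), 3 libraries a group. Bmp8b, Fgf21 and Gdf15 are higher in every cold library than in every room temperature library of the same genotype, and the 3 room temperature libraries labelled mutant are the highest for Nrg4.

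Nrg4, the ErbB ligand that promotes innervation, was the most abundant factor and the one that fell in the cold. Room temperature controls stood at 128, 109 and 112 CPM and the labelled mutants at 196, 183 and 146. Cold controls stood at 85.8, 93.7 and 92.6 CPM and cold labelled mutants at 106, 114 and 76.8. Room temperature labelled mutants lay above all other groups, and the cold genotypes overlapped each other. Raw counts ranged from 2431 to 7713.

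In the labelled mutants Nrg4 fell by 0.82 ± 0.16 on the log2 scale in the cold (SE, adjusted p = 0.0049), to 0.566 of its room temperature level. That call passed under all 16 alternatives, with adjusted p at or below 0.0387. In controls the groups did not overlap either, but the difference of -0.36 ± 0.16 had an adjusted p of 0.202. It passed with limma-voom and quality weights (0.048) and ran up to 0.504. The interaction, -0.46 ± 0.23, was not called (adjusted p = 0.442).

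By genotype at room temperature Nrg4 was 175 ± 26.0 CPM in the labelled mutants and 116 ± 9.98 CPM in controls (SD, n = 3), a 1.51-fold difference without overlap. Its log2 value of 0.59 ± 0.16 had an adjusted p of 0.0501, just short of the threshold. Over 16 alternatives 5 passed: the replicate block (0.0442), DESeq2 (0.0095), limma-voom with quality weights (0.00474), a filter at 30 counts (0.0487) and counts halved (0.0474). The highest was 0.181. In the cold the log2 difference was 0.13 with an interval from -0.22 to 0.48. Summed adipocyte markers stood at 22500 to 23400 CPM in room temperature controls and 31800 to 38100 CPM in labelled mutants there. In the cold they stood at 22200 to 24400 and 32000 to 37900 CPM. At room temperature Adipoq, Plin1, Lipe, Pnpla2 and Cidec did not overlap, while Fabp4, Lpl and Pparg did. Their part in the Nrg4 difference was not tested.

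Nrg4 shares 368 exon bases with Fbxo22, an F-box gene on the opposite strand. Fbxo22 stood at 59.1 ± 0.814, 75.7 ± 2.63, 50.7 ± 4.73 and 49.8 ± 3.95 CPM (SD, n = 3) in room temperature controls, room temperature labelled mutants, cold controls and cold labelled mutants. It fell by 0.60 ± 0.11 on the log2 scale in the cold in labelled mutants (adjusted p = 0.00275), and at room temperature its genotype difference was 0.36 ± 0.11 (adjusted p = 0.0729). The signs are those of Nrg4 in both. Without a stated strand setting the reads of the shared bases cannot be told apart, and the part of Fbxo22 in the Nrg4 values was not tested.

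Metrnl, the meteorin-like factor, had the smallest change among the called factors. Room temperature controls stood at 9.60, 7.99 and 9.44 CPM and labelled mutants at 7.89, 6.99 and 5.51. Cold controls stood at 14.0, 10.1 and 7.89 CPM and cold labelled mutants at 12.4, 10.1 and 11.3. The 3 room temperature labelled mutants and cold control 3 were the 4 lowest libraries.

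In the labelled mutants Metrnl rose in the cold by 0.73 ± 0.22 on the log2 scale (SE, adjusted p = 0.0386), a 1.66-fold change. The call was lost without room temperature labelled mutant 2 (0.0962) or 3 (0.137), without cold labelled mutant 1 (0.135), 2 (0.0617) or 3 (0.0511), with only the groups compared (0.0577) and without the muscle-rich libraries (0.176). In controls the difference was 0.25 ± 0.22 (adjusted p = 0.525). By genotype the values were -0.41 ± 0.22 at room temperature (adjusted p = 0.335), where the groups did not overlap, and 0.07 ± 0.22 in the cold, with an interval from -0.40 to 0.54.

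Slit2, the ROBO ligand, was low and variable. Room temperature controls held 36, 30 and 20 counts and labelled mutants 38, 10 and 38. Cold controls held 26, 10 and 8 counts and cold labelled mutants 22, 8 and 70. The groups overlapped in every comparison, and no difference was called, with adjusted p from 0.516 to 0.964. Cold labelled mutant 3, the library with the highest Bmp7, again stood highest. Without it the cold difference in labelled mutants moved from 0.16 to -0.74 on the log2 scale and the genotype difference in the cold from 0.88 to -0.01.

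Il6, the cytokine, was near the detection limit throughout. Room temperature control 2 held 4 counts, room temperature labelled mutant 2 held 3 and cold labelled mutant 1 held 1, and the other libraries held 0. That makes 8 counts over 12 libraries. A count of 0 allows up to 3 counts at 95% confidence, which is 0.0764 to 0.114 CPM at these depths, counting error only. That limit takes every count as separate. Most low counts in the table are even, and the limit is higher where counts come in pairs. No fold is given, since the groups lie at or near this floor. When the filter on low counts was left off, Il6 was tested among 19595 genes and its adjusted p ran from 0.465 to 0.972 over the 5 comparisons.

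The pathways of these factors were read from 11 lists of other genes. Over all tested genes, 6.62% were called for cold in controls and 17.4% for cold in labelled mutants. By genotype the shares were 6.24% at room temperature and 1.12% in the cold, and for the interaction 0.478%. Among 6 tested BMP ligands, Gdf5, a ligand of joint and cartilage development, was lower in room temperature labelled mutants (-2.61 ± 0.61 on the log2 scale, adjusted p = 0.0255), at 0.752 ± 0.361 against 4.61 ± 3.28 CPM (SD, n = 3). Bmp3, a ligand that opposes other BMPs, fell in the cold in labelled mutants (-1.66 ± 0.45, adjusted p = 0.0261). In each of these comparisons it was the 1 member of the list called, and the list median was -0.19 and -0.52 beside -0.04 and -0.01 for all genes. None of the 6 was called in the other 3 comparisons, where at most 2 had an unadjusted p below 0.05.

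Of 15 BMP receptors and SMADs, cold brought 2 calls in controls and 5 in labelled mutants, beside 6.62% and 17.4% of all tested genes. The co-receptor endoglin (Eng) rose in both, from 106 ± 10.3 to 199 ± 3.46 CPM in controls and from 114 ± 14.4 to 203 ± 19.8 CPM in labelled mutants (adjusted p = 0.00303 and 0.00134). Over both genotypes endothelium markers, 6 of 6 detected, summed to 584 to 901 CPM at room temperature and 890 to 1040 in the cold. Pecam1, Cdh5, Kdr and Emcn rose in the cold without overlap in each genotype, while Tek and Tie1 overlapped. Eng is itself a gene of endothelium. The part of these markers in its rise was not tested. The type I receptor Bmpr1a fell in controls (-0.93 ± 0.17, adjusted p = 0.0105). In labelled mutants the type I receptor Acvr1 fell (-0.79 ± 0.15, adjusted p = 0.00434) and Smad9 rose (1.69 ± 0.37, adjusted p = 0.00895). No gene of the list was called by genotype, with 1 at an unadjusted p below 0.05 at each temperature.

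Among 16 BMP antagonists and feedback genes, 3 were higher in room temperature labelled mutants and none lower, beside 6.24% of all tested genes called. They were the secreted BMP binders Chrd (9.66 ± 1.45 against 3.13 ± 1.34 CPM, adjusted p = 0.0169) and Chrdl1 (31.1 ± 22.5 against 9.25 ± 1.16 CPM, adjusted p = 0.0457), and the ubiquitin ligase Smurf1 (79.7 ± 3.75 against 46.6 ± 8.76 CPM, adjusted p = 0.0142). In the same comparison the ligand Bmp4 was called higher and the ligand Gdf5 lower. In the cold Chrd and Chrdl1 fell in labelled mutants, by 2.003 ± 0.35 and 1.85 ± 0.46 on the log2 scale (adjusted p = 0.00264 and 0.0179), the 2 of 16 called there.

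Of 7 BMP target genes, Id2, a helix-loop-helix inhibitor, was lower in room temperature labelled mutants (4.07 ± 1.38 against 14.6 ± 3.79 CPM, adjusted p = 0.0116) and rose there in the cold (adjusted p = 0.00184). Hey1 rose and Atoh8 fell in the cold in both genotypes. Hey1 went from 5.84 ± 0.943 to 13.5 ± 2.08 CPM in controls and from 5.54 ± 2.06 to 12.5 ± 1.27 CPM in labelled mutants. Atoh8 went from 14.9 ± 2.50 to 6.22 ± 0.909 CPM and from 13.8 ± 2.30 to 5.69 ± 0.32 CPM. Target genes thus did not share 1 direction. Id1, a common readout of BMP signalling, was not called in any comparison.

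**Figure D4:**
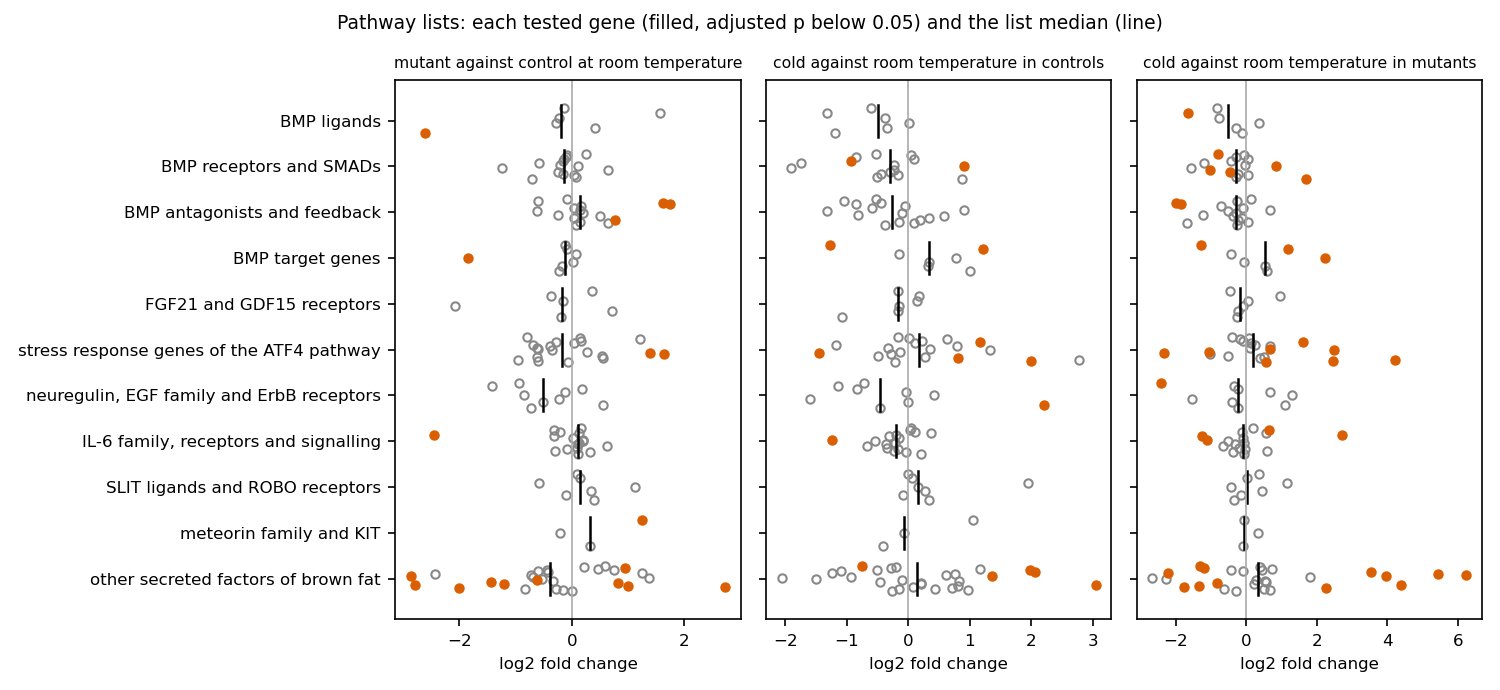
Log2 fold change (horizontal axes, which differ in range) of each tested gene of 11 pathway lists in 3 comparisons, filled where the adjusted p was below 0.05, with the median of each list as a line. Calls of both signs stand in most lists with more than 1 call in the cold, and the BMP antagonist list has 3 filled points, all to the right, for genotype at room temperature.

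The receptors of FGF21 and GDF15 were not called in any comparison, 6 of 8 listed genes being tested and at most 1 having an unadjusted p below 0.05. The most abundant were Fgfr1, at 83.7 to 121 CPM in its group means, and the co-receptor gene Klb, at 31.7 to 58.5 CPM. Of 20 stress response genes of the ATF4 pathway, 4 were called in the cold in controls (3 higher, 1 lower). In labelled mutants 8 were called (6 higher, 2 lower). The shares of all tested genes called were 6.62% and 17.4%. The transcription factor Atf5 rose from 211 ± 35.3 to 473 ± 48.3 CPM in controls and from 173 ± 17.1 to 531 ± 92.6 CPM in labelled mutants. The pseudokinase gene Trib3 rose from 6.20 ± 0.569 to 24.6 ± 7.52 CPM and from 4.08 ± 1.64 to 22.6 ± 9.65 CPM.

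The serine synthesis enzyme Phgdh went the other way in the cold, by -1.45 ± 0.26 in controls (adjusted p = 0.00806) and -2.32 ± 0.26 in labelled mutants (adjusted p = 0.000223). By genotype at room temperature Phgdh and Psat1, both of serine synthesis, were higher in the labelled mutants, at 103 ± 21.8 against 39.2 ± 6.48 CPM and 49.4 ± 16.8 against 15.8 ± 4.64 CPM (adjusted p = 0.00747 and 0.0261). None of the 20 was called by genotype in the cold (2 had an unadjusted p below 0.05), where Fgf21 itself did not overlap between the genotypes.

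Around Nrg4, 9 genes of the neuregulin and EGF families and their ErbB receptors were tested. Betacellulin (Btc), another ErbB ligand, was lower in the labelled mutants in the cold, at 0.535 ± 0.225 against 3.37 ± 0.101 CPM (-2.63 ± 0.31, adjusted p = 0.00284), and fell there from room temperature to cold (-2.42 ± 0.31, adjusted p = 0.000455). Nrg2 rose in the cold in controls from 0.215 ± 0.0313 to 1.01 ± 0.148 CPM (adjusted p = 0.0398). None of the 9 was called by genotype at room temperature (1 had an unadjusted p below 0.05), where Nrg4 lay at the threshold.

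Of 17 tested genes of IL-6 signalling, Cntfr, the receptor subunit of ciliary neurotrophic factor, was called for genotype at room temperature and for cold in labelled mutants (adjusted p = 0.00173 and 0.000385). It stood at 13.1 ± 4.82 CPM in room temperature labelled mutants and at 71.8 ± 17.3, 62.7 ± 11.6 and 86.3 ± 28.5 CPM in room temperature controls, cold controls and cold labelled mutants. Its interaction of 2.92 ± 0.44 was the 1 called on the list (adjusted p = 0.0200). The cytokine gene Ctf1 was lower in labelled mutants in the cold (-1.27 ± 0.23, adjusted p = 0.0267). The receptor Il6ra fell in the cold in both genotypes, from 17.4 ± 1.32 to 7.37 ± 1.61 CPM in controls and from 19.9 ± 4.84 to 9.19 ± 2.19 CPM in labelled mutants. The IL-6 receptor thus had reads in every group while its ligand had next to none.

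For the remaining pathways, none of 7 tested SLIT and ROBO genes was called in any comparison (at most 1 had an unadjusted p below 0.05), the most abundant being Robo4 at 48.2 to 54.3 CPM and Slit3 at 21.0 to 45.9 CPM in group means. Of 3 genes of the meteorin family and KIT, Kit, the receptor bound by METRNL, was higher in room temperature labelled mutants, at 15.1 ± 1.23 against 6.34 ± 2.54 CPM (adjusted p = 0.0290). Metrnl stood at 6.80 ± 1.199 CPM there and 9.01 ± 0.886 CPM in controls, which was not called.

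The 28 other secreted factors moved in both directions. By genotype at room temperature 4 were higher and 6 lower in the labelled mutants, beside 6.24% of all tested genes called. Retn, the resistin gene, was among the higher (699 ± 33.5 against 106 ± 43.8 CPM, adjusted p = 0.00374). The kininogen gene Kng2 (9.45 ± 3.86 against 68.4 ± 33.2 CPM, adjusted p = 0.00148) and Nampt (212 ± 16.4 against 324 ± 5.51 CPM, adjusted p = 0.00747) were among the lower. In the cold 3 were called by genotype, beside 1.12% of all tested genes. Kng1 was higher in the labelled mutants, and Pm20d1 and Rbp4 were lower. Rbp4, the retinol carrier, stood at 77.1 ± 24.2 and 153 ± 43.5 CPM at room temperature and 135 ± 19.4 and 60.4 ± 9.16 CPM in the cold, in controls and labelled mutants in that order. Its interaction of -2.16 ± 0.34 was called (adjusted p = 0.0230), as was that of Kng2 (2.58 ± 0.48, adjusted p = 0.0492).

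Cold raised 4 of the 28 and lowered 1 in controls, and raised 6 and lowered 6 in the labelled mutants. The shares of all tested genes called were 6.62% and 17.4%. The growth factor gene Fgf9 rose from 0.942 ± 0.289 to 3.93 ± 0.873 CPM in controls and from 0.701 ± 0.142 to 8.13 ± 2.77 CPM in labelled mutants (adjusted p = 0.00512 and 0.000117). Ptgds, the prostaglandin D synthase, rose in controls from 4.39 ± 0.645 to 36.2 ± 9.35 CPM (adjusted p = 0.00753). It also rose in labelled mutants, from 0.626 ± 0.475 to 13.3 ± 5.57 CPM (adjusted p = 0.000671). Adipoq, the adiponectin gene whose promoter drives the Cre, fell in controls from 1290 ± 78.8 to 769 ± 144 CPM and in labelled mutants from 1950 ± 43.8 to 787 ± 96.3 CPM (adjusted p = 0.0211 and 0.000429).

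Among themselves the factors formed no single pattern over the 12 libraries. On log2 CPM, Bmp8b and Gdf15 had a Pearson r of 0.914, Bmp8b and Metrnl one of 0.762, and Bmp8b and Nrg4 one of -0.818. Bmp4, Bmp7 and Slit2 reached at most 0.453 with each other. These values describe 12 points that share library depth and span both temperatures, and values within a temperature were not computed. The gene most alike to Bmp8b among 12341 was Ick, a ciliary kinase (r = 0.97), followed by the ion channel gene Trpm4 (0.965) and the Frizzled receptor gene Fzd6 (0.959). Nearest to Fgf21 were the mitotic kinase Aurka (0.957), Aspscr1 (0.951) and the mitochondrial nuclease Rexo2 (0.942).

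Gdf15 was nearest to the histone chaperone Asf1b (0.923), then Bmp8b and As3mt (0.913). Nrg4 was nearest to the row of Mir7034 (0.947), Zeb2os (0.944) and the heme-binding protein gene Hebp1 (0.942), and Hebp1 stood at 92.2 CPM in room temperature labelled mutants and 26.8 to 42.7 CPM in the other groups. Metrnl was nearest to Nt5dc2 (0.915), Tctn3 (0.909) and the carbonyl reductase Cbr1 (0.896). Among the genes nearest to Bmp4 were Rasgef1b (0.863) and Hps5 (0.831). Bmp7 was nearest to the growth arrest ligand Gas6 (0.893), Tcp11l1 (0.87) and Ralgps1 (0.868), and Slit2 to the phosphatase Ptprj (0.925), Nav3 (0.911) and Antxr1 (0.909).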

How the data were processed

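RNA sequencing counts of mouse brown adipose tissue were used, 12 libraries in 4 groups of 3. The authors deposited raw counts per gene, which per the submitters' processing notes came from STAR and featureCounts on build mm9. RNA from TRIzol and columns went into NEBNext Ultra libraries, per the labels' protocols. The strand setting, the annotation, the tool versions and the counting of multi-matching reads were not given in the sources used here. Totals ran from 25835650 to 37927038 counts, and 75.3% of values from 1 to 19 are even.

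The test was that of edgeR 4.0.16 (R 4.3.3) on the deposited counts: filterByExpr (minimum count 10, minimum total 15), TMM, and a robust quasi-likelihood F-test (legacy mode) over all 12 libraries with 1 coefficient per group, in 5 contrasts. P-values are two-sided, adjusted by Benjamini-Hochberg over all 15265 genes. SE is the fold change divided by the root of F. CPM uses TMM-scaled totals. Counting intervals are exact and leave out all but counting error, because no molecular identifiers are named in the labels. The fit was tested on simulated data.

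The factors, the pathway and marker lists and the tests were chosen with earlier results of these data known. The text names all 9 factors, Ebf2, Ucp1, up to 3 called genes per list and comparison by smallest p (otherwise the 2 most abundant), and the 3 genes most alike to each tested factor on log2 CPM (prior count 1, mean CPM at least 1, unnamed gene models left out). Bmp8a, Fbxo22 and Ppie, which share sequence or exons with factors, and Id1 and Alb were added after their values were seen. For 1 gene that the rule names, the result is not reported here. Exon lengths and overlaps are from GENCODE M21 (GRCm38), another build than the counts. Replicates of a group differed by a chi-square per degree of freedom of 38.2 to 234, so none was 1 library deposited again.

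Replicate numbers are shared between groups. On log2 CPM (prior count 1), same-numbered deviations had correlations above 0.1 in all 3 pairs for genotype at room temperature (0.165, 0.719 and 0.488) and for cold in controls (0.142, 0.647 and 0.456). On log2 of CPM plus 1 this held only for cold in labelled mutants (0.264, 0.186 and 0.62). The labels name no litter or day behind a number, so the pairing is unsettled, and blocked values are given where they change a call. The alternatives tried were DESeq2 1.42.0, limma-voom (limma 3.58.1) with quality weights, RLE size factors, a filter at 30 counts or none, the replicate block, a non-robust fit, a fit of only the groups compared, leaving out each library or the 3 libraries with over 1% muscle counts and, chosen after seeing the data, halved counts rounded up.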

Additional observations from a re-analysis of the deposited data

How the results depend on the processing

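Low counts limit Il6, Slit2, Bmp7, Gdf15 and Fgf21, and 3 libraries a group limit every test. Without the muscle-rich libraries only control 2 remains of the room temperature controls, so losses under that setting also reflect less replication. Over 40 fold changes of the factors (8 factors, 5 comparisons), 678 alternative values were computed: 608 kept sign and side of the threshold, 32 lost the call, 19 gained one and 19 changed sign. In 31 of the 40 no value changed sign. Bmp8b and Fgf21 by genotype at room temperature gave no value with only the groups compared, since they did not pass the filter there.

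The number of factors called by genotype at room temperature, 1 in the report, was 4 with DESeq2, 0 with only the groups compared and without the muscle-rich libraries, and 2 with limma-voom, a filter at 30 counts, the replicate block or counts halved. Leaving out 1 library gave 0 to 1. In the cold, 0 became 1 with limma-voom. For cold in controls, 2 became 4 with limma-voom and 1 with no filter, only the groups compared or without the muscle-rich libraries, and 1 to 2 on leaving out 1 library. For cold in labelled mutants, 5 became 7 with limma-voom, 6 with DESeq2 or the replicate block, 3 with only the groups compared or without the muscle-rich libraries, and 2 to 5 on leaving out 1 library.

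Genes called over the whole table moved too. At room temperature by genotype, 952 became 1699 with DESeq2, 2844 with limma-voom, 552 with only the groups compared and 298 without the muscle-rich libraries, and 395 to 1152 on leaving out 1 library. In the cold by genotype, 171 became 745, 1119 and 102 with DESeq2, limma-voom and only the groups compared, and 28 to 133 on leaving out 1 library. For cold in controls, 1010 became 2018, 3402 and 338 with DESeq2, limma-voom and without the muscle-rich libraries, and 313 to 971 on leaving out 1 library. For cold in labelled mutants, 2663 became 5075 with limma-voom and 1633 with only the groups compared, and 1466 to 3630 on leaving out 1 library. The interaction, 73, became 452 with DESeq2, 1121 with limma-voom, 48 with the non-robust fit and 34 with the replicate block, and 13 to 204 on leaving out 1 library. The cause of these moves was not tested.

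Sign changes were confined to differences that the report does not call. By genotype in the cold, Bmp7 was -1.22 with limma-voom and Gdf15 0.0885 with the replicate block. Leaving out 1 library gave ranges there of -0.43 to 0.33 for Gdf15, -0.10 to 0.32 for Metrnl, -0.39 to 0.18 for Bmp8b, -0.54 to 0.0249 for Bmp4, -0.96 to 0.93 for Bmp7 and -0.0138 to 1.55 for Slit2. For Slit2 the range was -0.41 to 0.27 by genotype at room temperature. For cold in labelled mutants Slit2 was -0.13 with limma-voom and -0.74 to 0.56 on leaving out 1 library. The Bmp7 interaction was 0.0221 without the muscle-rich libraries and -1.51 to 0.38 on leaving out 1 library. The replicate block changed the calls of Nrg4 (genotype at room temperature) and Bmp4 (cold in labelled mutants), both given in the report, and no other call of a factor.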
